A study of Arabidopsis thaliana with 4 samples.

Results

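WRKY proteins are a plant family of transcription factors, and 48 of their genes were followed here in Arabidopsis thaliana seedlings given glutamine after growth without nitrogen. The 48 genes were taken by locus from the deposited expression table, which lists 33602 genes, and each carries a WRKY symbol in the reference annotation. Whole seedlings of the Columbia (Col) accession were raised for 14 days in liquid medium lacking nitrogen. They were sampled before transfer (0 h), or 0.5 h after they were moved to that medium supplemented with 2.5 mM glutamine, and each time is represented by 2 libraries. The labels name no mutation or transgene, and all seedlings shared the nitrogen-free growth. No library here comes from seedlings transferred without glutamine, so glutamine, the transfer and time cannot be told apart.

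WRKY factors bind DNA through a domain that joins a conserved tryptophan-arginine-lysine-tyrosine stretch to a zinc finger, and most recognise the W box, a short element built around TTGAC. They are sorted into group I, with a pair of WRKY domains, group II, with a single domain and subgroups IIa to IIe, and group III, with a different zinc finger. Many are switched on within minutes of a microbial signal, act downstream of MAP kinases (protein kinases that work in cascades), pair with VQ-motif proteins and set the balance of salicylic acid and jasmonate responses. Others act in leaf senescence, phosphate uptake and root development.

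Of the 48 genes, 9 rose and 5 fell within 0.5 h of transfer. The genes that rose were WRKY18, WRKY70, WRKY46, WRKY31, WRKY48, WRKY72, WRKY51, WRKY6 and WRKY33, by 1.67-fold (WRKY33) to 2.84-fold (WRKY70) in the ratio of mean RPKM (read counts scaled for gene length and library size). Those that fell were WRKY49, WRKY45, WRKY61, WRKY53 and WRKY7, to between 0.417 (WRKY49) and 0.682 (WRKY7) of the level at 0 h. All 14 had values at the 2 times that did not overlap, which adds no support, since the call itself favours such genes. Values did not overlap for 59.7% of all tested genes. A gene was called at an adjusted p under 0.05, from limma with Benjamini-Hochberg adjustment over 18039 tested genes, on log2(RPKM + 1). Genes averaging under 1 RPKM over all libraries were not tested, which left 44 of the 48. None of the 44 passed through one time alone, since each averaged 1 RPKM or more at both times.

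The 9 rising genes are 20.5% of the 44 tested, where 6.71% of all tested genes rose. The 5 falling genes are 11.4%, where 5.11% of all tested genes fell. The 48 genes were chosen with earlier results of these data known, so these shares are a description and test no enrichment. Values at the 2 times did not overlap for 33 of the 44 genes (75%), against 59.7% of all tested genes. Of the 30 tested genes that were not called, 13 had an unadjusted p under 0.05, which makes 27 in all, 15 higher and 12 lower. The share of all tested genes under that unadjusted cut was not counted, here or for later counts at the same cut. These counts thus have no background to be read against. The median difference over the 44 was 0.11 on the log2 scale, beside -0.03 over all tested genes, and 24 differences were positive and 20 negative. The called changes thus went in both directions, and the summed level of the 48 genes overlapped between times. It was 1888 and 1708 RPKM at 0 h and 2012 and 1865 RPKM at 0.5 h. With 2 libraries a time, an exact permutation test of one gene cannot give a two-sided p below 0.333, so the calls rest on the spread that limma shares across genes. With no minimum level, which brings 24937 genes into the test, the calls of WRKY31, WRKY51 and all 5 falling genes ended, at limma adjusted p-values of 0.054 to 0.109.

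**Figure D1:**
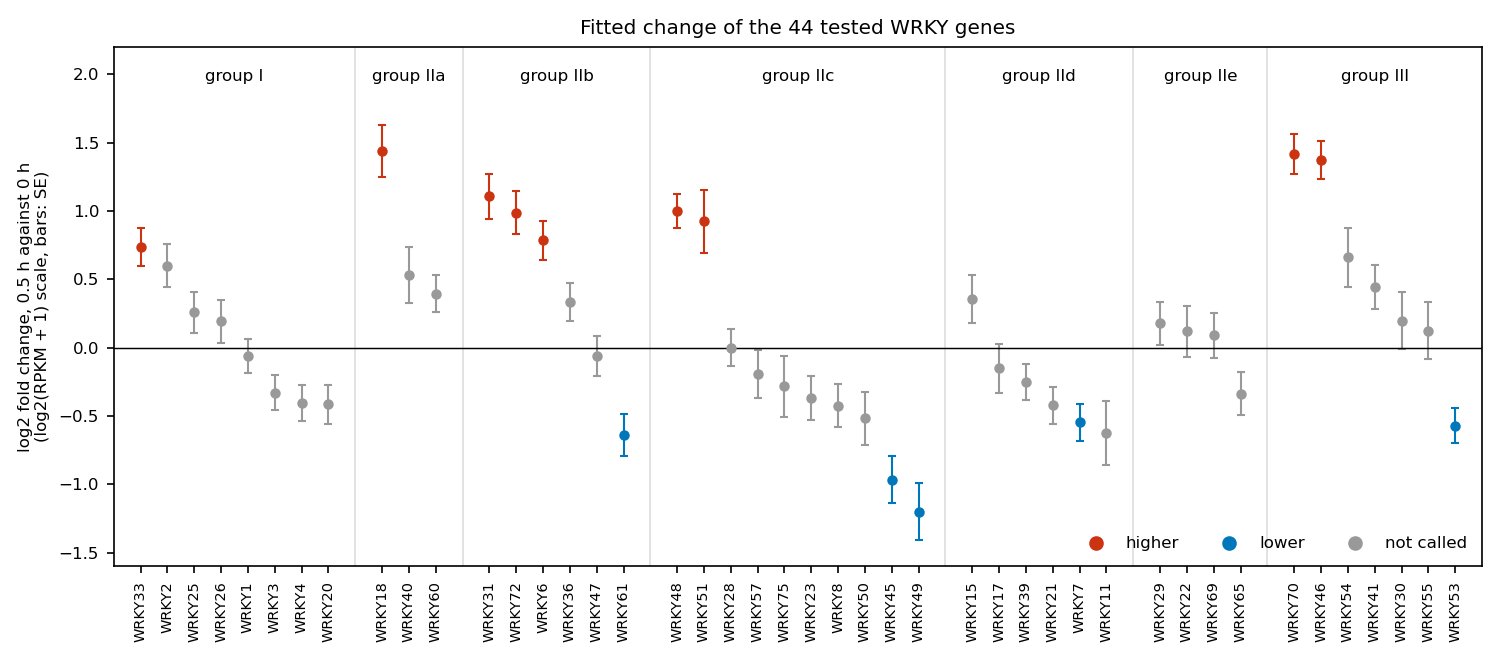
Fitted difference between 0.5 h and 0 h for the 44 tested WRKY genes, in log2(RPKM + 1), with bars for the standard error and colours for called genes, by structural group. WRKY18, WRKY70 and WRKY46 lie farthest above 0 and WRKY49 and WRKY45 farthest below, and the 4 members of group IIe lie between -0.34 and 0.18.

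**Figure D2:**
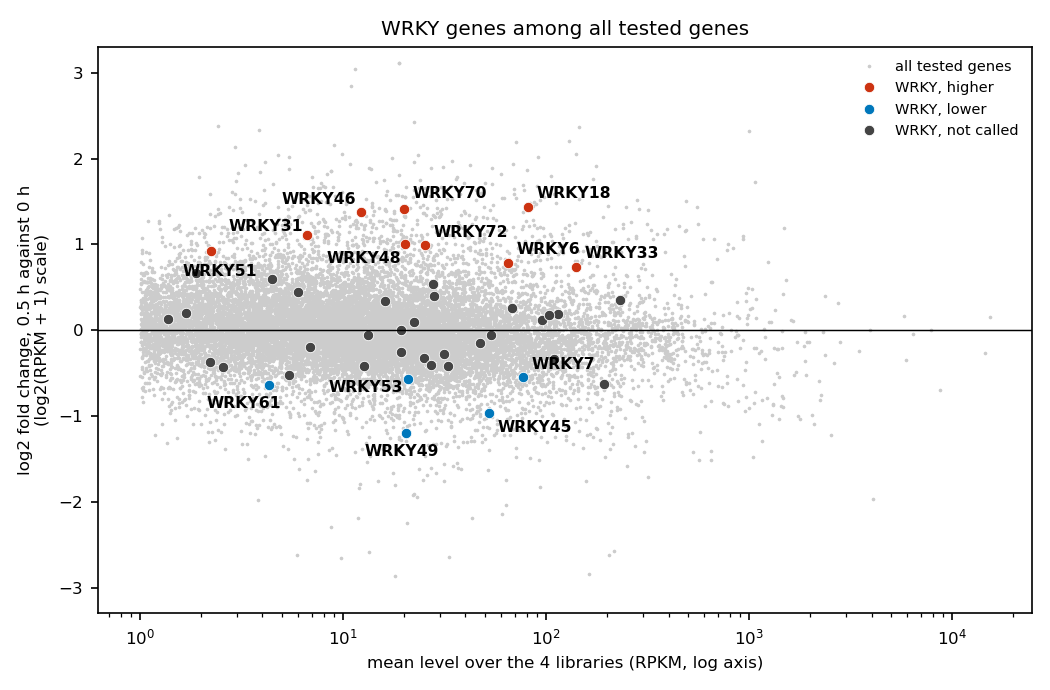
Fitted log2 difference between 0.5 h and 0 h against mean RPKM (log axis) for all 18039 tested genes, with the WRKY genes marked and the vertical axis ending at 3.3 on either side, which leaves 2 genes outside. The WRKY genes lie between 1.36 and 229.5 RPKM, far below the highest tested genes, such as LHCB1.3 at 14553 RPKM. The 9 that rose and 5 that fell lie on both sides of 0.

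The libraries held 20429735 to 27203579 reads in genes, recovered from the steps of the RPKM values, and the WRKY genes held 54321 to 75940 of them per library. Over 7 markers of photosynthetic shoot tissue the summed level was 30578 and 31188 RPKM at 0 h and 25128 and 25474 RPKM at 0.5 h, and 2 of the 7 were called, LHCA1 and LHCA4, both lower. They are 28.6% of the 7, where 5.11% of all tested genes fell. Of the 7, 6 had a negative difference and 1 a positive one. Values of the times did not overlap for 5 (71.4%), against 59.7% of all tested genes. The other 5 were not called. Among them, RCA had 862 and 984 RPKM at 0 h and 618 and 657 RPKM at 0.5 h. PSBO1 had 2654 and 2621 RPKM and then 1680 and 1832 RPKM. LHCB1.3, also not called, weighed most in the sum, with 15739 and 15997 RPKM at 0 h and 13555 and 12922 RPKM at 0.5 h. Its multi-mapped share was 0.208. The LHCA1 call ended when the 1st library at 0 h or either library at 0.5 h was left out (limma adjusted p = 0.083, 0.14 and 0.10). The sum over 7 root markers overlapped between the times, at 187 and 321 RPKM at 0 h and 215 and 204 RPKM at 0.5 h, with 1 marker called, SHR, which rose and was not called without any one library (limma adjusted p-values of 0.0504 to 0.11). SHR is 16.7% of the 6 root markers tested, where 6.71% of all tested genes rose. Most of the root sum was PYK10, with 158 and 273 RPKM at 0 h and 165 and 166 RPKM at 0.5 h. Its multi-mapped share was 0.167. No marker was at 0, and the lowest was the root hair gene RHS12 at 0.0431 to 0.360 RPKM. In whole seedlings, fewer cells of a type and less RNA per cell cannot be told apart, and the part of tissue makeup in the WRKY results was not tested. The labels do not say that the 2 libraries of a time came from separate cultures, so p-values measure only the spread between these libraries, which may be technical.

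Levels per gene length spanned a wide range. The median of the 48 mean levels was 20.3 RPKM, beside 12.6 RPKM over all tested genes, and the range ran from 0.0912 RPKM (WRKY62) to 229.5 RPKM (WRKY15). Of the 48, 7 had a mean above 82.9 RPKM, the level that the highest 10% of tested genes exceeded. The 5 highest at 0 h held 42.7% of the family's summed level at that time. Of the 7 highest genes, WRKY33 was called, and WRKY15, WRKY11, WRKY26, WRKY65, WRKY29 and WRKY22 were not.

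**Figure D3:**
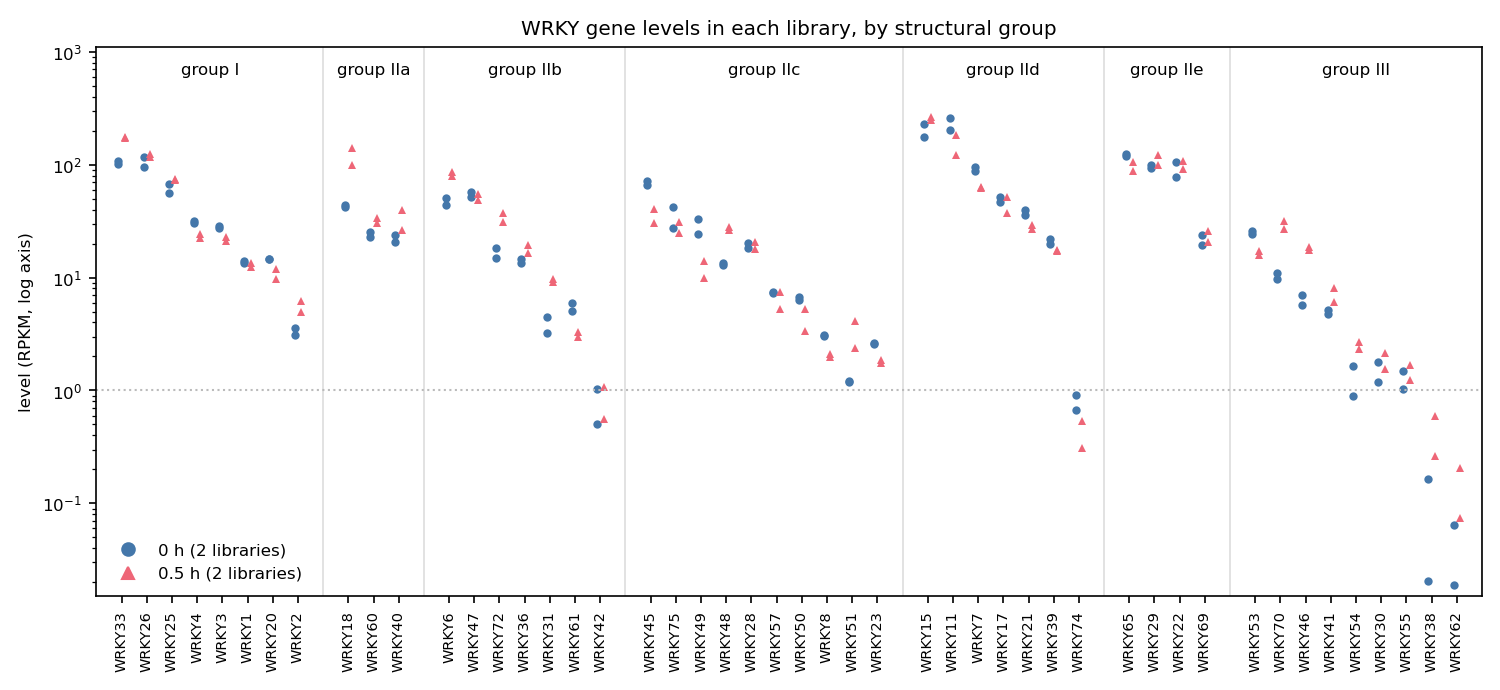
RPKM of each of the 48 WRKY genes in each of the 4 libraries on a log axis, with 0 h and 0.5 h in different colours, genes sorted by structural group and a dotted line at 1 RPKM, the minimum mean for testing. WRKY15 and WRKY11 are the highest, WRKY38 and WRKY62 the lowest, and the points of the 2 times separate for the called genes.

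In group IIa, WRKY18 rose and its relatives WRKY40 and WRKY60 were higher without passing the test. The 3 proteins carry leucine zippers, bind each other and act together as modulators, mostly repressors, of basal defence and abscisic acid responses. WRKY18 (AT4G31800) stood at 42.3 and 43.7 RPKM at 0 h and at 98.6 and 141 RPKM at 0.5 h. Both libraries at 0.5 h lay far above those at 0 h, though they differed from each other by more than the 0 h pair did. The means were 43.0 ± 0.998 and 120.0 ± 30.2 RPKM (SD, n = 2 each), and the difference was 1.44 ± 0.19 (SE) on the log2 scale (limma adjusted p = 0.0082). WRKY18 passed under all 15 alternative settings, among them the loss of any one library. WRKY40 (AT1G80840) had 20.6 and 23.6 RPKM at 0 h and 26.3 and 39.6 RPKM at 0.5 h. Its times did not overlap, but the 2nd library at 0.5 h stood apart from the 1st, and the difference of 0.53 ± 0.21 was not called (limma adjusted p = 0.14). With the 1st library at 0.5 h left out it was 0.82 and passed (limma adjusted p = 0.035). WRKY40 had a multi-mapped share of 0.0916, and it overlaps AT1G80850, itself at 1.74 to 2.31 RPKM. WRKY60 (AT2G25000) had 25.1 and 22.8 RPKM at 0 h and 33.4 and 30.3 RPKM at 0.5 h, again without overlap. Its difference was 0.40 ± 0.14 (limma adjusted p = 0.11). Summed over the group, the level was 87.9 and 90.1 RPKM at 0 h and 158 and 211 RPKM at 0.5 h. Whether WRKY18 differed in its change from WRKY40 and WRKY60 was not tested.

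In group III, WRKY70 and WRKY46 rose nearly 3-fold, while WRKY53 fell. WRKY70 favours salicylic acid over jasmonate responses, and WRKY46, WRKY54 and WRKY70 act together in defence and in brassinosteroid-promoted growth. WRKY70 (AT3G56400) had 11.1 and 9.68 RPKM at 0 h and 27.0 and 31.9 RPKM at 0.5 h. The times were well apart, with means of 10.4 ± 0.988 and 29.4 ± 3.50 RPKM (SD, n = 2 each). The log2 difference was 1.42 ± 0.15 (SE; limma adjusted p = 0.0047). WRKY46 (AT2G46400) had 5.76 and 7.03 RPKM at 0 h and 17.6 and 18.6 RPKM at 0.5 h. Both later libraries were above both earlier ones, by 1.37 ± 0.14 on the log2 scale (limma adjusted p = 0.0047). Like WRKY18, WRKY70 and WRKY46 passed under all 15 alternative settings. WRKY54 (AT2G40750), the closest relative of WRKY70, had 0.885 and 1.63 RPKM at 0 h and 2.71 and 2.34 RPKM at 0.5 h. Its times did not overlap, but its difference of 0.66 ± 0.22 was not called (limma adjusted p = 0.099).

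WRKY53 (AT4G23810), an activator of leaf senescence, had 25.8 and 24.5 RPKM at 0 h and 17.3 and 16.0 RPKM at 0.5 h. Its replicates lay close together and the times apart, and the log2 difference was -0.57 ± 0.13 (SE; limma adjusted p = 0.035). WRKY53 has the largest multi-mapped share of the 48 genes, 0.361, and overlaps AT4G23800, itself at 1.22 to 2.01 RPKM, and whether the counting used strand is unknown here. Without any one library the call ended, at limma adjusted p-values of 0.057 to 0.17. The remaining tested genes of the group were WRKY41, a defence regulator, at 4.71 and 5.11 RPKM and then 8.12 and 6.10 RPKM, and the low WRKY30 and WRKY55, at 1.04 to 2.16 RPKM. None of these 3 was called. The summed level of group III was 51.6 and 50.3 RPKM at 0 h and 77.3 and 78.0 RPKM at 0.5 h.

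**Figure D4:**
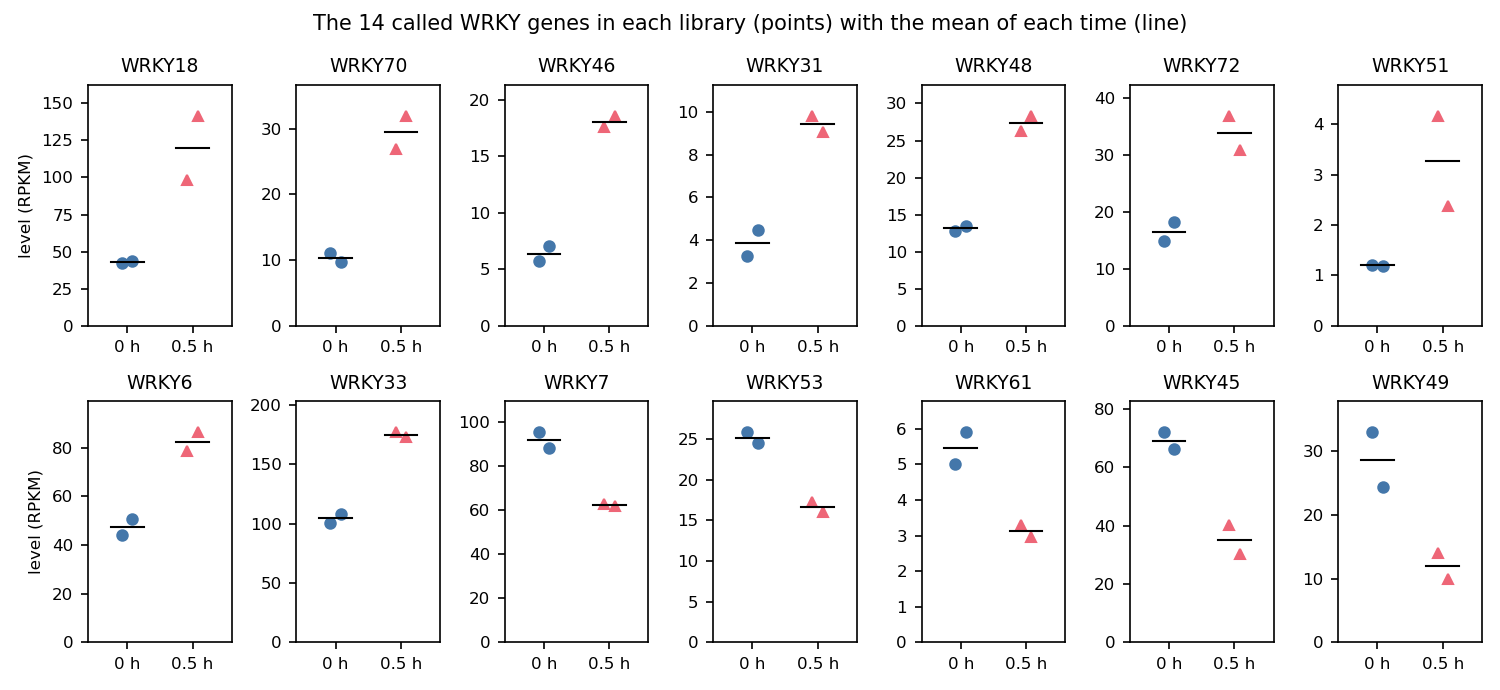
RPKM in each library for the 14 WRKY genes that were called, one panel a gene, with points for single libraries and lines for the mean of the 2 libraries of each time. In every panel the points of 0 h and 0.5 h are apart, and the pairs at 0.5 h lie wide apart for WRKY18 and WRKY51.

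Group IIb held 3 of the 9 rising genes, WRKY6, WRKY31 and WRKY72, and 1 falling gene, WRKY61. WRKY6 acts in senescence and defence and represses the phosphate exporter gene PHO1, and WRKY31 is a close relative of it. WRKY6 (AT1G62300) had 44.2 and 50.7 RPKM at 0 h and 78.7 and 86.2 RPKM at 0.5 h, the highest mean of the group over all libraries, though WRKY47 was higher at 0 h. The times did not overlap, and the log2 difference was 0.79 ± 0.14 (SE; limma adjusted p = 0.020). It was not called when the 1st library at 0 h was left out (0.69, limma adjusted p = 0.089), nor when the 2nd at 0.5 h was (0.72, limma adjusted p = 0.087). WRKY31 (AT4G22070) had 3.26 and 4.50 RPKM at 0 h and 9.80 and 9.06 RPKM at 0.5 h. It thus stood at a far lower level than WRKY6, with a log2 difference of 1.11 ± 0.16 (SE; limma adjusted p = 0.011). Leaving out the 1st library at 0 h ended the call (0.92, limma adjusted p = 0.0505).

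WRKY72 and WRKY61 are related genes of group IIb, and WRKY72 contributes to basal resistance to nematodes and bacteria. WRKY72 (AT5G15130) had 15.0 and 18.2 RPKM at 0 h and 36.9 and 30.9 RPKM at 0.5 h. The times were apart by 0.99 ± 0.16 on the log2 scale (limma adjusted p = 0.013), and leaving out the 1st library at 0 h ended the call (0.86, limma adjusted p = 0.065). WRKY61 (AT1G18860) had 5.01 and 5.90 RPKM at 0 h and 3.31 and 2.96 RPKM at 0.5 h. Its log2 difference was -0.64 ± 0.15 (SE; limma adjusted p = 0.040), and without any one library it was -0.74 to -0.54 and not called. Median-of-ratios scaling also ended the call (limma adjusted p = 0.0519). WRKY61 is annotated as overlapping another gene, which the deposited table does not list. WRKY36 had 13.4 and 14.7 RPKM and then 19.5 and 16.6 RPKM, and WRKY47 lay between 48.9 and 57.5 RPKM in every library with overlapping times, and neither was called.

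Group IIc, the largest with 10 genes, held 2 that rose and 2 that fell. WRKY48, a negative regulator of basal defence against bacteria, was among those that rose. WRKY48 (AT5G49520) had 12.8 and 13.5 RPKM at 0 h and 26.4 and 28.3 RPKM at 0.5 h. The pairs were tight, the log2 difference was 1.00 ± 0.13 (SE; limma adjusted p = 0.0072), and all 15 alternative settings kept the call. WRKY51 (AT5G64810), which with WRKY50 mediates repression of jasmonate signalling when salicylic acid is high, had 1.21 and 1.19 RPKM at 0 h and 4.16 and 2.38 RPKM at 0.5 h. These values rest on 20 and 22 reads at 0 h and 79 and 34 reads at 0.5 h. The log2 difference was 0.92 ± 0.23 (SE; limma adjusted p = 0.048). The call ended when either library at 0 h was left out (0.93 and 0.92, limma adjusted p = 0.16 and 0.15) or the 1st at 0.5 h was (0.62, limma adjusted p = 0.12). It also ended with a pseudocount of 5, median-of-ratios scaling, quantile normalization and limma-voom, at adjusted p-values of 0.0515 to 0.0593, so that 6 of its 14 alternatives kept it. WRKY50 (AT5G26170) itself had 6.32 and 6.68 RPKM at 0 h and 5.25 and 3.39 RPKM at 0.5 h, a log2 difference of -0.52 ± 0.19 that was not called (limma adjusted p = 0.13). The signs of WRKY50 and WRKY51 were thus opposite, and their difference was not tested.

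The falling genes of group IIc were WRKY45 and WRKY49. WRKY45 activates the phosphate transporter gene PHT1;1 and promotes leaf senescence. WRKY45 (AT3G01970) had 71.9 and 66.1 RPKM at 0 h and 40.2 and 30.2 RPKM at 0.5 h. Its later values were far below the earlier ones, by -0.96 ± 0.17 on the log2 scale (limma adjusted p = 0.018). The call ended when the 1st library at 0 h was left out (-0.90, limma adjusted p = 0.076) and when the 2nd at 0.5 h was (-0.76, limma adjusted p = 0.071). WRKY49 (AT5G43290) had 32.9 and 24.4 RPKM at 0 h and 14.0 and 9.92 RPKM at 0.5 h, the deepest fall of the family. Its log2 difference was -1.20 ± 0.21 (SE; limma adjusted p = 0.017). Its call ended without the same 2 libraries, with -0.99 when the earlier one was left out (limma adjusted p = 0.072) and -0.97 when the later one was (limma adjusted p = 0.063).

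WRKY75 (AT5G13080), the relative of WRKY45 known from the phosphate starvation response, had 42.2 and 27.5 RPKM at 0 h and 31.1 and 25.0 RPKM at 0.5 h. The times overlapped, and the log2 difference of -0.28 had a 95% interval of -0.81 to 0.24. WRKY28, which acts in salicylic acid synthesis, lay between 18.0 and 20.6 RPKM in every library, with a difference of 0.00 and an interval of -0.32 to 0.33. WRKY8, WRKY23 and WRKY57 were not called either, at 1.74 to 7.52 RPKM. The median difference of group IIc was -0.32 on the log2 scale over its 10 genes.

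Among the 8 genes of group I, only WRKY33 was called. The times did not overlap for 7 of the 8, against 59.7% of all tested genes. WRKY33 is a substrate of the MAP kinases MPK3 and MPK6 and drives synthesis of the antimicrobial camalexin. WRKY33 (AT2G38470) had 100.5 and 109 RPKM at 0 h and 177 and 173 RPKM at 0.5 h, the highest mean of the group over all libraries, though WRKY26 had the higher mean at 0 h. The means were 105 ± 5.75 and 175 ± 2.80 RPKM (SD, n = 2 each), and the log2 difference was 0.74 ± 0.14 (SE; limma adjusted p = 0.022). Without any one library the difference was 0.68 to 0.79 and the call ended, at limma adjusted p-values of 0.0502 to 0.088. WRKY33 overlaps AT2G38480, itself at 2.39 to 3.75 RPKM, and without the strand setting their reads cannot be told apart.

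WRKY25 and WRKY26 act with WRKY33 in heat tolerance. WRKY25 had 67.7 and 55.8 RPKM at 0 h and 73.5 and 74.2 RPKM at 0.5 h, a log2 difference of 0.26 with a 95% interval of -0.10 to 0.62. WRKY26 had 117 and 96.2 RPKM at 0 h and 125 and 118 RPKM at 0.5 h, a difference of 0.19 with an interval of -0.18 to 0.56. Neither was called, and a difference in change from WRKY33 was not tested. WRKY2 (AT5G56270), which acts in seed germination and early embryo patterning, had 3.58 and 3.10 RPKM at 0 h and 4.99 and 6.21 RPKM at 0.5 h. It was the uncalled member closest to the threshold (0.60 ± 0.16, limma adjusted p = 0.057) and passed under 5 of its 14 alternatives. WRKY2 overlaps AT5G56280, a gene at 18.7 to 29.0 RPKM. WRKY3 and WRKY4, known from resistance to necrotrophic fungi, and WRKY20 were lower in both later libraries, by -0.41 to -0.33 on the log2 scale, and were not called. WRKY1 (AT2G04880), reported to link light and nitrogen signalling, lay between 12.5 and 13.9 RPKM in every library. Its difference was -0.06 with an interval of -0.36 to 0.24, at a multi-mapped share of 0.145.

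Group IId, whose proteins bind calmodulin, held the highest levels of the family and 1 called gene. WRKY7, WRKY11 and WRKY17 are negative regulators of basal defence. WRKY7 (AT4G24240) had 95.4 and 88.2 RPKM at 0 h and 63.1 and 62.2 RPKM at 0.5 h. The pairs did not overlap, and the log2 difference was -0.54 ± 0.14 (SE; limma adjusted p = 0.047). Without any one library it was -0.60 to -0.49 and not called, at limma adjusted p-values of 0.11 to 0.18, and without the intensity trend the call ended too (limma adjusted p = 0.0521). WRKY11 (AT4G31550) had 260.1 and 204 RPKM at 0 h and 183 and 122 RPKM at 0.5 h. Its difference of -0.62 ± 0.23 was of similar size to that of WRKY7, but its replicates were farther apart and it was not called (limma adjusted p = 0.13). WRKY17, with 51.7 and 46.6 RPKM and then 51.7 and 37.6 RPKM, overlapped between times.

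WRKY15 (AT2G23320), which acts in cell expansion and osmotic stress, had 227 and 177 RPKM at 0 h and 265 and 249 RPKM at 0.5 h. It was the single tested gene of group IId with a positive difference, 0.36 on the log2 scale with a 95% interval of -0.06 to 0.77, and it was not called. WRKY21 and WRKY39 were lower in both later libraries, at 17.2 to 39.8 RPKM over all libraries, without a call. The sum over the group was 693 and 577 RPKM at 0 h and 608 and 517 RPKM at 0.5 h.

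No gene of group IIe was called at 0.5 h. WRKY22 and WRKY29 act downstream of a MAP kinase cascade triggered by bacterial flagellin. WRKY22 (AT4G01250) had 104 and 78.4 RPKM at 0 h and 107 and 90.8 RPKM at 0.5 h, and WRKY29 (AT4G23550) had 94.1 and 99.2 RPKM and then 122 and 98.8 RPKM. Both overlapped between times, with 95% intervals of -0.32 to 0.56 and -0.20 to 0.56 on the log2 scale. WRKY65 (AT1G29280), the highest of the group by the mean of all libraries but not at 0.5 h, had 125 and 119 RPKM at 0 h and 106 and 88.0 RPKM at 0.5 h. Its times did not overlap, but the difference of -0.34 had an interval of -0.70 to 0.03 (limma adjusted p = 0.21). WRKY69 lay between 19.6 and 25.8 RPKM with overlapping times. Values of the times were thus free of overlap for 1 of the 4 genes, against 59.7% of all tested genes.

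The 4 genes below the minimum level were not tested. WRKY38 and WRKY62, group III factors that act as negative regulators of basal defence, were at 0.0204 and 0.165 RPKM and at 0.0638 and 0.0191 RPKM at 0 h. At 0.5 h they were at 0.598 and 0.262 RPKM and at 0.207 and 0.0745 RPKM. WRKY38 rested on 0, 4, 16 and 5 reads in the 4 libraries and WRKY62 on 1, 0, 5 and 1, and a library with 0 reads has a value above 0 because 0.5 read was added to every gene before deposit. WRKY42, a relative of WRKY6 in phosphate signalling, had 0.510 to 1.08 RPKM on 18 to 46 reads, and WRKY74 had 0.311 to 0.914 RPKM on 8 to 32 reads. No change could be read for them at this depth.

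A further 24 genes carry a WRKY symbol in the annotation and are not among the 48. They were lower expressed, with a median level of 1.17 RPKM, and 13 of them were tested. Of these 13, 0 rose and 1 fell by the limma test, and 1 higher and 3 lower genes had an unadjusted p under 0.05. The 1 falling gene is 7.69% of the 13, near the 5.11% of all tested genes that fell. The gene that fell was WRKY27, named here after its value was seen, with 32.0 and 28.7 RPKM at 0 h and 19.7 and 15.0 RPKM at 0.5 h (-0.78, limma adjusted p = 0.030). Whether the 48 genes differ from these 24 in their change was not tested.

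The proteins known to act with WRKY factors were described from lists of VQ-motif partners, MAP kinases and reported target genes. These lists too were chosen with earlier results of these data known, so their shares test no enrichment. Of 34 genes listed as VQ-motif partners, 26 were tested, 5 rose (19.2%) and 1 fell (3.85%), where 6.71% of all tested genes rose and 5.11% fell. The median difference was 0.25 on the log2 scale. VQ proteins bind WRKY domains and alter their activity. AT3G56880, the highest of those that rose, had 136 and 132 RPKM at 0 h and 243 and 273 RPKM at 0.5 h. The others that rose were AT1G17147 (26.7 ± 4.19 to 51.5 ± 2.33 RPKM), AT1G78410 (5.47 ± 1.55 to 13.2 ± 1.63 RPKM), AT2G42140 (3.48 ± 0.982 to 6.45 ± 0.144 RPKM) and AT2G44340 (1.09 ± 0.0696 to 2.80 ± 0.683 RPKM), each SD with n = 2. For all 5, and for MVQ4, times did not overlap, which the call itself favours. Over the list, times did not overlap for 18 of the 26 tested genes (69.2%), against 59.7% of all tested genes. MVQ4 (AT3G15300), a MAP kinase substrate of the VQ family, fell from 13.2 and 12.3 RPKM to 6.97 and 3.74 RPKM (-1.16 ± 0.24, limma adjusted p = 0.027). Leaving out the 2nd library at 0 h ended the calls of AT1G17147 (0.77, limma adjusted p = 0.060), AT1G78410 (0.90, limma adjusted p = 0.052), AT2G42140 (0.53, limma adjusted p = 0.18), AT2G44340 (0.82, limma adjusted p = 0.15) and MVQ4 (-1.21, limma adjusted p = 0.080). Leaving out the 1st at 0 h ended those of AT2G44340 (0.88, limma adjusted p = 0.13) and MVQ4 (-1.12, limma adjusted p = 0.11). Leaving out the 1st at 0.5 h ended those of AT2G42140 (0.73, limma adjusted p = 0.090) and AT2G44340 (0.66, limma adjusted p = 0.11). Leaving out the 2nd at 0.5 h ended those of AT1G17147 (0.88, limma adjusted p = 0.064), AT2G42140 (0.77, limma adjusted p = 0.12) and AT3G56880 (0.86, limma adjusted p = 0.069). Quantile normalization ended the call of AT2G42140 (limma adjusted p = 0.0645), and limma-voom those of AT2G42140 and AT2G44340 (adjusted p = 0.0551 and 0.0662). The 2 listed genes AT1G21320 and AT1G32610 are not annotated as VQ-motif proteins, and neither was called.

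Of 9 kinases of the cascades that act on WRKY factors, 3 rose and 0 fell, where 6.71% of all tested genes rose and 5.11% fell, and 8 had a positive difference. MKK4 (AT1G51660), which activates MPK3 and MPK6, had 8.59 and 10.3 RPKM at 0 h and 22.4 and 29.8 RPKM at 0.5 h. Its log2 difference was 1.37 ± 0.17 (SE; limma adjusted p = 0.0072), and it overlaps another annotated gene. MPK11 (AT1G01560), a relative of MPK4, had 1.47 and 1.19 RPKM at 0 h and 4.12 and 4.10 RPKM at 0.5 h (1.14 ± 0.16, limma adjusted p = 0.0096). MEKK1 (AT4G08500), at the head of a cascade, had 21.4 and 19.2 RPKM and then 34.1 and 32.9 RPKM (0.70 ± 0.13, limma adjusted p = 0.021), and its call ended without any one library, at limma adjusted p-values of 0.053 to 0.10. MPK3 and MPK6, the kinases of WRKY33, had differences of opposite sign and were not called. MPK3 had 142 and 148 RPKM at 0 h and 195 and 204 RPKM at 0.5 h (limma adjusted p = 0.087). MPK6 had 58.1 and 60.7 RPKM at 0 h and 43.1 and 42.4 RPKM at 0.5 h (limma adjusted p = 0.067). By the limma test 7 of the 9 kinases were higher and 1 lower at an unadjusted p under 0.05. The share of all tested genes under that cut was not counted, so no response of the cascade as a whole is read from it.

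Of 16 reported WRKY target genes, 11 were tested, and 1 rose and 1 fell (9.09% each), which is near the 6.71% and 5.11% of all tested genes. EDS1 (AT3G48090), a hub of immune signalling, had 16.1 and 15.4 RPKM at 0 h and 24.7 and 24.4 RPKM at 0.5 h (0.61 ± 0.12, limma adjusted p = 0.027). FRK1 (AT2G19190), a receptor kinase gene used as a marker of early immune signalling, had 35.5 and 41.6 RPKM at 0 h and 25.8 and 18.6 RPKM at 0.5 h (-0.79 ± 0.19, limma adjusted p = 0.040). EDS1 was not called without any one library (0.58 to 0.64, limma adjusted p-values of 0.060 to 0.12). FRK1 was not called without either library at 0 h (-0.90 and -0.67) or without the 2nd at 0.5 h (-0.56), at limma adjusted p-values up to 0.15. Its call also ended with median-of-ratios scaling (limma adjusted p = 0.0517), quantile normalization (0.0587) and no intensity trend (0.0503). FRK1 also overlaps another annotated gene. PHO1, the target repressed by WRKY6, had 12.2 and 13.8 RPKM at 0 h and 9.36 and 7.14 RPKM at 0.5 h, below the earlier values without a call (-0.61 ± 0.16, limma adjusted p = 0.055). PHT1;1, the target of WRKY45 and WRKY75, had 29.8 and 41.1 RPKM and then 27.9 and 18.9 RPKM (limma adjusted p = 0.15), with a multi-mapped share of 0.499. The salicylic acid synthesis gene ICS1 and the camalexin gene PAD3 overlapped between times or differed without a call. PR1, SAG12, CYP71A13, JAZ8 and ABI4 were under the minimum level.

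**Figure D5:**
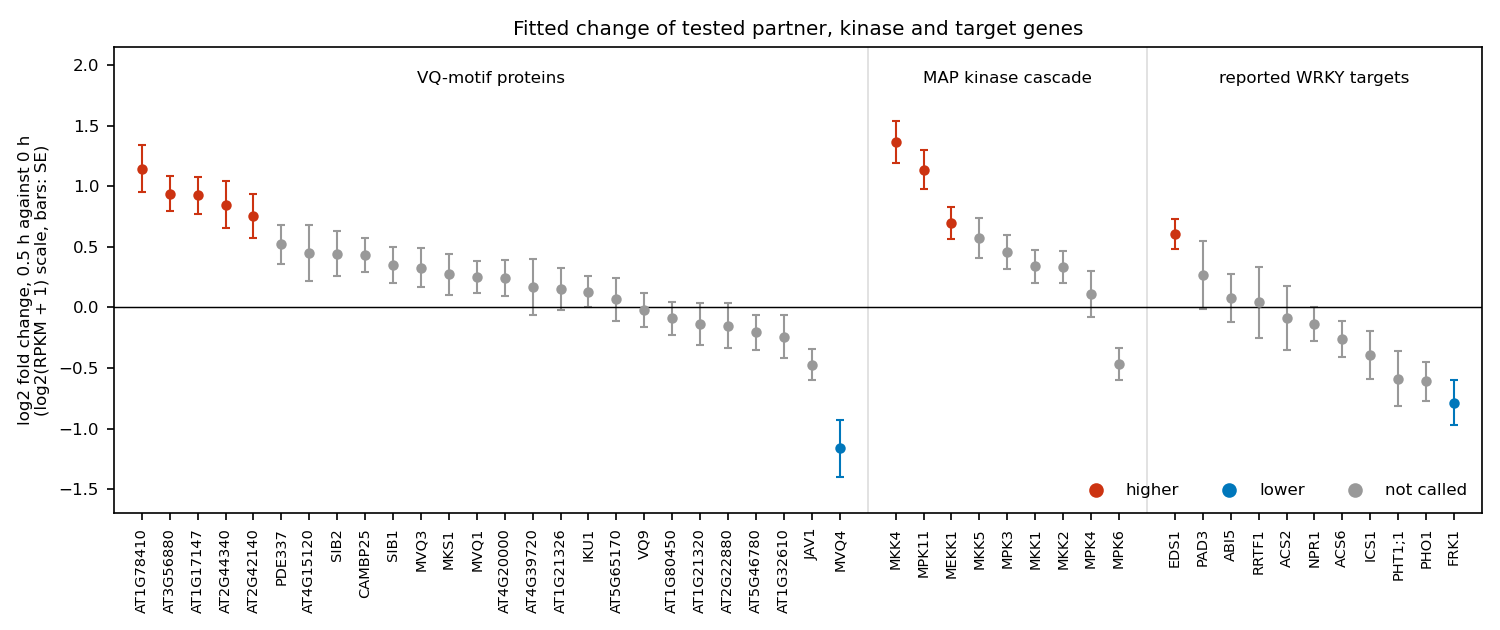
Fitted difference between 0.5 h and 0 h in log2(RPKM + 1), with bars for the standard error, for the tested VQ-motif partners, MAP kinases and reported target genes, coloured by call. Of the kinases, 8 of 9 lie above 0 with MKK4 highest, while the target genes lie on both sides of 0.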

How the data were processed

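The authors deposited RPKM values scaled by TMM (trimmed mean of M-values; the table's name says so), with gene length and a deposited fraction, the highest share of multi-mapped reads per gene. Per the submitters' processing notes, TAIR10 and SAMtools were used; aligner, counter and any strand setting were not given in the sources used here. For this report, reads were recovered from the steps of RPKM times length after taking off 0.5 read per gene. They were whole, within 0.05 read, for 100% of genes without multi-mapped reads and 47.5 to 51.7% of genes with them. Genes averaging at least 1 RPKM were tested with limma 3.58.1 (R 4.3.3) on log2(RPKM + 1), with an intensity trend and time as the single term, which understates changes of low genes. P-values were two-sided and Benjamini-Hochberg adjusted over all tested genes. Residual degrees of freedom were 2 and prior ones 4.82. The fitting code was also run on simulated reads, with the same setting for the spread between replicates in every gene. The real replicates vary unevenly between genes, so that run cannot support single calls here. Groups came from sample titles. The members and lists were chosen with earlier results of these data known. Named were all called members, the highest member of each group, members with a multi-mapped share above 0.05, and called partner or target genes; other named genes were chosen after their values were seen. Roles and structural groups are background knowledge. The reference annotation, of another build name, gave names and overlaps alone, and the motif searches planned for promoters and proteins were not made. In all, 15 alternative settings were run. Other software was matplotlib 3.10.9, scipy 1.17.1, numpy 2.4.6, pandas 2.3.3 and Python 3.11.15.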

Additional observations from a re-analysis of the deposited data

How the results depend on the processing

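Of the 14 calls, WRKY18, WRKY48, WRKY46 and WRKY70 passed under all 15 alternatives, and no call changed sign under any. Without 1 library the count of rising genes was 4 to 9 and that of falling genes 0 to 3, with 0 when the 1st library at 0 h or the 2nd at 0.5 h was left out (6 falling genes at an unadjusted limma p under 0.05 in either case). In these fits the lone library of a time is assumed to vary like the pair of the other. The median difference was then -0.0079 to 0.2338, and 0.0469 with a minimum mean of 5 RPKM. With no minimum, 0 genes fell by limma (12 at an unadjusted p under 0.05) and 7 rose. The calls of AT1G78410, AT2G42140, AT2G44340, MVQ4, EDS1, FRK1, LHCA1 and SHR ended as well, and over all genes 798 of 24937 were called in place of 2133 of 18039. Over all genes, 787 and 954 were called when the 1st or the 2nd library at 0 h was left out, 740 when the 2nd at 0.5 h was and 1918 when the 1st at 0.5 h was. With a replicate block, 9 WRKY genes rose and 3 fell, and over all genes 1961 of 18039 were called in place of 2133. The calls of WRKY7 (limma adjusted p = 0.0703), WRKY61 (0.0562) and, among target genes, FRK1 (0.0544) ended. The labels do not say what the numbers pair, and same-numbered libraries did not deviate together (correlation -0.078). Pseudocounts of 0.1 or 5, the other scalings, limma with robust estimation or without the trend, limma-voom on recovered reads and the removal of multi-mapped genes kept 12 to 14 of the 14 calls. Depth limits the genes with few reads, among them WRKY51 and the 4 untested genes.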
